A study of Mus musculus with 59 samples.

Results

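The 10 genes described here are immediate early genes of the mouse, and they were followed through 35 RNA libraries and 23 chromatin precipitation libraries of mouse embryonic stem cells. They are Fos, Jun, Junb, Egr1, Atf3, Ier2, Ier3, Zfp36, Dusp1 and Myc. Membership was set by gene name without a threshold on a measured value, but the list was chosen with earlier results of these data known. Each symbol matched 1 of the 39017 gene identifiers in the deposited RNA tables, and the mm10 spans of the 10 genes touched 15 of the 546202 windows of 5000 bases in each deposited chromatin table. All 10 genes passed the filter on low counts in every RNA fit and in both chromatin fits.

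Immediate early genes are switched on within minutes of a growth signal or a stress without new protein synthesis, because the factors that bind their promoters are already in the cell and are activated by MAP kinases. Many encode transcription factors that carry the signal on to later genes, and others encode short-lived proteins that end it. In embryonic stem cells the same MAP kinase signal favours exit from self-renewal, while heat activates it beside the heat shock factors. Their RNAs are short-lived, so their levels follow the state of the culture at the time of lysis.

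The study used cells of a 129xC57Bl6 hybrid line grown on gelatin with LIF. In the first RNA set, loss of the Microprocessor, the nuclear enzyme pair of Drosha and DGCR8 that cuts primary microRNAs, was induced with 0.5 μM 4-hydroxytamoxifen (4OHT) for 24, 48 or 96 h. One line was labelled Rosa26:CRE, DGCR8 Flox/Flox, so that Cre is made from a ubiquitous locus, and the other Drosha Flox/Flox, for which the label names no Cre. Each time point had 2 libraries with 4OHT and 2 control libraries per line, except that Drosha at 96 h had 1 library with 4OHT. No line without floxed alleles was given 4OHT, so an effect of the drug or of Cre itself and an effect of the deletion cannot be told apart. In the second RNA set, 4 Mettl3 knockout lines (1d1, 3xU, 1d2 and 2c4d) and 2 parental lines were held at 42 °C for 1 h or kept at 37 °C, with 1 library per line and temperature. All of these lines, the parental ones included, carry Rosa26:BirA and a FLAG/Avi tag on DGCR8, and the knockout lines carry METTL3KO in addition. METTL3 is the enzyme that methylates adenosine in RNA. In the chromatin sets, biotinylated FLAG/Avi-tagged DGCR8, Drosha, Dicer or METTL3 was pulled down from Rosa26:BirA cells and set against input DNA. A DGCR8 precipitate was also taken from Mettl3 knockout cells, and DGCR8 and METTL3 precipitates from cells held at 42 °C. The labels do not say whether the lines and clones of a group arose independently, or whether parental 1 and 2 are separate lines or repeats of 1 line. Parental 1 and 2 are counted as 2 lines here. Libraries with the same treatment may be technical repeats, in which case p-values measure only the spread between libraries.

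RNA libraries held 7102867 to 13579892 counts in total, and chromatin libraries held 13775668 to 86256100 counts. Drosha stood at 23.4 to 29.1 CPM (counts scaled to a library of 1e6) with 4OHT in the Drosha line, against 82.4 to 126 CPM in its controls, and Mettl3 at 20.5 to 40.8 CPM in the knockout lines, against 60.4 to 71.5 CPM in parental lines. Dgcr8 counted over the whole gene was higher with 4OHT in the DGCR8 line, at 223 to 290 CPM against 105 to 145 CPM in controls, so this count does not check the deletion of part of that gene. All 8 embryonic stem cell markers were detected in both sets, with a summed level of 2220 to 4587 CPM. All 7 fibroblast markers had some counts in both sets, with sums of 4.02 to 7.27 CPM in the DGCR8 line, 17.1 to 45.9 CPM in the Drosha line and 5.37 to 13.2 CPM in the heat set. They were uneven: in the floxed set Lum reached at most 0.0972 CPM and Dcn 0.529 CPM, while Col1a1 reached 35.3 CPM. Genes of the mitochondrial genome took 12.3 to 21.9% of the counts, except in replicate 1 of DGCR8 at 96 h with 4OHT (33.4%) and in the single Drosha library at 96 h with 4OHT (28.7%).

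Per length of transcript (RPKM, CPM per kilobase of the deposited gene width), Ier2, Myc and Junb had the highest medians of the members in both RNA sets. Ier2 had a median of 27.4 RPKM over the 12 libraries of the heat set and 25.7 RPKM over the 23 libraries of the floxed set. Myc had medians of 15.0 and 8.73 RPKM and Junb of 11.6 and 13.0 RPKM in these sets. Fos was the lowest, at 1.30 and 1.79 RPKM, and the other 6 lay between 3.25 and 4.71 RPKM in the heat set and between 2.67 and 7.08 RPKM in the floxed set. The floxed medians pool lines that differ: in the Drosha line the group means of Dusp1 were 9.92 to 15.7 RPKM, against 9.31 to 12.7 RPKM for Junb and 6.99 to 14.8 RPKM for Myc. The highest CPM of a member was 3.03 times (Ier3) to 47.8 times (Egr1) its lowest over the heat set, and 2.04 times (Junb) to 9.20 times (Fos) over the floxed set. Medians this close among the middle members do not set them in an order beyond their spread.

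Promoter sequence is shown for 5 members because they span the outcomes of the heat experiment: Fos, Junb and Zfp36 rose, Jun rose once cell lines were paired, and Dusp1 did not pass in either fit. Each run holds the 250 bases before the RefSeq start of the gene in GRCm38.p6, read 5′ to 3′ on the gene's strand. The intervals are chr12:85473640-85473889 for Fos on the plus strand, and on the minus strand chr4:95052223-95052472 for Jun, chr8:84978749-84978998 for Junb, chr7:28379229-28379478 for Zfp36 and chr17:26508473-26508722 for Dusp1. Capitals mark matches on either strand to 7 motifs.
Fos: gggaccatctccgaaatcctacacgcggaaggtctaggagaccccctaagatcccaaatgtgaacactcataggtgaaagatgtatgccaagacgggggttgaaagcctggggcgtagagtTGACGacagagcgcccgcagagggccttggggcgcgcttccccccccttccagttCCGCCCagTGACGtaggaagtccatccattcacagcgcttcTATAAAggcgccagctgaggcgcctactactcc
Jun: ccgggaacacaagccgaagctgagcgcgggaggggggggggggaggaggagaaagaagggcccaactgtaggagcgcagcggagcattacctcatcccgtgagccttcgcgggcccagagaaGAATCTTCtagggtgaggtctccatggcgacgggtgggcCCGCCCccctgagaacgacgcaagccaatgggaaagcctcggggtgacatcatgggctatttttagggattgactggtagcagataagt
Junb: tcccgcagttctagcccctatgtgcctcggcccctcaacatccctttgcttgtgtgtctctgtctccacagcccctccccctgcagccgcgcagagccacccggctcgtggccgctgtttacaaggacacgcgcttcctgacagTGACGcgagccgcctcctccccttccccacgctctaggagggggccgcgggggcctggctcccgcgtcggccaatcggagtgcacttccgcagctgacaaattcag
Zfp36: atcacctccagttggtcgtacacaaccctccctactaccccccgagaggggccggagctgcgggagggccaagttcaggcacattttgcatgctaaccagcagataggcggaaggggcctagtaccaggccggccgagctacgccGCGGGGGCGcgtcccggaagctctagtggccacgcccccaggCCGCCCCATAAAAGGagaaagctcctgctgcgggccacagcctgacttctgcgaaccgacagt
Dusp1: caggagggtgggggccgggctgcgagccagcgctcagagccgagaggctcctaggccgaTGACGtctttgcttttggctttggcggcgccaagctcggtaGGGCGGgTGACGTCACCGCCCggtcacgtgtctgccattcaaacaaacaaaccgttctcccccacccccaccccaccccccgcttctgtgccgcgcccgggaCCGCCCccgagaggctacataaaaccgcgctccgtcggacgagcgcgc
The promoter table held 7 of the 10 members. Fos had the only TATA box (TATAAA) of the 7, starting 33 bases before the start site, and 12.4% of all 32851 mouse promoters of this length had one. The cyclic AMP response core TGACG, the letters bound by CREB and ATF factors, occurred 2 times in Fos, 3 times in Dusp1 and 1 time each in Junb and Atf3, and in 17.8% of all promoters. The GC box GGGCGG, bound by Sp factors, was found in 6 of the 7 members, all but Junb, against 32.7% of all promoters. Zfp36 had the only CArG box, the site of serum response factor, which 1.47% of promoters held, and it overlapped a GC box by 1 base. Zfp36 also had the only EGR site (GCGNGGGCG, in 4.7% of promoters), and Jun the only pair of inverted heat shock units (GAANNTTC, in 6.69%). None of the 7 held the AP-1 site TGANTCA, which 6.75% of all promoters held. These matches describe letters in a window and not binding.

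After 1 h at 42 °C, RNA of the AP-1 genes Fos and Junb and of the mRNA decay factor Zfp36 was higher in each of the 6 cell lines than in the same line at 37 °C, on average 5.04-fold for Fos, 3.50-fold for Junb and 4.07-fold for Zfp36. Jun, Egr1 and Ier2 were also higher at 42 °C in all 6 lines, by smaller or less even amounts. Dusp1 and Myc were not. Of all 15635 genes tested, 8.21% were higher at 42 °C in all 6 lines and 9.43% were lower in all 6. In each of these bulk cultures, more cells with an RNA and more RNA per cell cannot be told apart.

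Fos encodes the partner that forms the AP-1 transcription factor with Jun proteins. Its RNA stood at 22.2, 11.3, 4.72 and 18.6 CPM in knockout lines 1d1, 3xU, 1d2 and 2c4d at 42 °C, against 1.90, 2.41, 1.39 and 2.33 CPM in the same lines at 37 °C. In parental lines 1 and 2 it stood at 6.12 and 3.69 CPM at 42 °C, against 1.37 and 1.31 CPM at 37 °C. All libraries at 42 °C lay above all libraries at 37 °C, in both genotypes. Averaged over the 2 genotypes, the log2 fold change was 2.33 ± 0.38 (SE; adjusted p = 0.0245, edgeR quasi-likelihood test with Benjamini-Hochberg adjustment over all genes, as are all adjusted p-values below).

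Junb, another AP-1 subunit, stood at 84.0, 31.9, 23.0 and 53.5 CPM in the knockout lines at 42 °C, against 17.0, 15.8, 8.93 and 18.6 CPM at 37 °C. Parental lines had 82.5 and 64.4 CPM at 42 °C, against 18.6 and 19.6 CPM at 37 °C. The groups did not overlap, and the averaged change was 1.81 ± 0.31 on the log2 scale (edgeR adjusted p = 0.0342). Zfp36 encodes tristetraprolin, which binds AU-rich RNAs and speeds their decay. It stood at 17.4, 10.9, 7.38 and 11.8 CPM in the knockout lines at 42 °C, against 4.53, 5.12, 2.34 and 4.07 CPM at 37 °C. In parental lines it stood at 20.2 and 17.4 CPM at 42 °C, against 3.27 and 3.45 CPM at 37 °C. Zfp36 too had no overlap between the temperatures, and its averaged log2 change of 2.02 ± 0.26 had the smallest p of the 10 (edgeR adjusted p = 0.00439). These 3 of 10 members passed the adjusted threshold of 0.05, all higher, where 0.262% of all genes passed, 0.217% as higher and 0.0448% as lower. Groups without overlap in both genotypes, as for these 3, were found for 0.672% of genes as higher at 42 °C. The median averaged change of the 10 members was 0.66 on the log2 scale, against -0.01 over all genes.

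Jun, the AP-1 subunit that gave the family its name, stood at 39.9, 59.4, 24.9 and 47.3 CPM in the knockout lines at 42 °C, against 9.80, 23.2, 10.4 and 10.9 CPM at 37 °C. Parental lines had 14.7 and 15.4 CPM at 42 °C, against 7.45 and 5.83 CPM at 37 °C. Within each genotype the temperatures did not overlap, as was true of Fos, Junb and Zfp36, but line 3xU at 37 °C lay above both heated parental lines. Within the knockout lines 2.26% of genes were higher and 1.26% lower without overlap, and within the parental lines 14.8% each way, where Ier2 and Ier3 were also higher without overlap. The averaged log2 change of Jun was 1.42 ± 0.28 and missed the threshold (edgeR adjusted p = 0.0692).

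Egr1, a zinc finger transcription factor, varied more between lines than with heat. It stood at 95.3, 33.1, 5.49 and 31.1 CPM in knockout lines 1d1, 3xU, 1d2 and 2c4d at 42 °C, against 78.8, 21.2, 1.99 and 11.6 CPM at 37 °C. In parental lines 1 and 2 it had 32.8 and 11.0 CPM at 42 °C, against 19.2 and 5.67 CPM at 37 °C. Over the 12 libraries its level spanned 47.8-fold, the widest range of the 10, and the averaged change of 0.67 ± 0.80 was within the spread of the lines (edgeR adjusted p = 1.00). The lines with much Egr1 at 37 °C also had much of it at 42 °C.

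Ier2, a nuclear regulator of transcription without a known DNA-binding domain, ranged from 33.0 to 79.0 CPM in the knockout lines at 42 °C, against 24.7 to 50.1 CPM at 37 °C. In parental lines it had 73.0 and 57.3 CPM at 42 °C, against 35.7 and 47.6 CPM at 37 °C. Its averaged change was 0.64 ± 0.27 (edgeR adjusted p = 0.735). Ier3, which modulates cell survival, was higher at 42 °C in 5 of 6 lines, at 4.33 to 8.20 CPM against 3.09 to 6.49 CPM in the knockout lines and 5.57 and 5.73 CPM against 3.42 and 2.71 CPM in parental lines. Atf3, a stress-induced factor of the ATF family, was also higher in 5 of 6 lines, at 3.90 to 10.5 CPM against 1.37 to 9.20 CPM in the knockout lines. Neither Ier3 (0.65 ± 0.27) nor Atf3 (0.55 ± 0.43) passed the test.

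The 2 members that did not move up were Dusp1, the phosphatase that switches MAP kinases off, and Myc, the growth regulator that is also a factor of self-renewal. Dusp1 was at 11.5, 10.9, 4.03 and 11.4 CPM in the knockout lines at 42 °C, against 11.1, 21.3, 9.36 and 11.2 CPM at 37 °C, and was higher in 3 lines and lower in 3. Myc was at 42.3, 39.9, 19.7 and 23.8 CPM in the knockout lines at 42 °C, against 44.5, 63.4, 41.9 and 39.8 CPM at 37 °C. It was lower at 42 °C in 5 of 6 lines, with an averaged change of -0.44 ± 0.24 (edgeR adjusted p = 0.968).

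**Figure D1:**
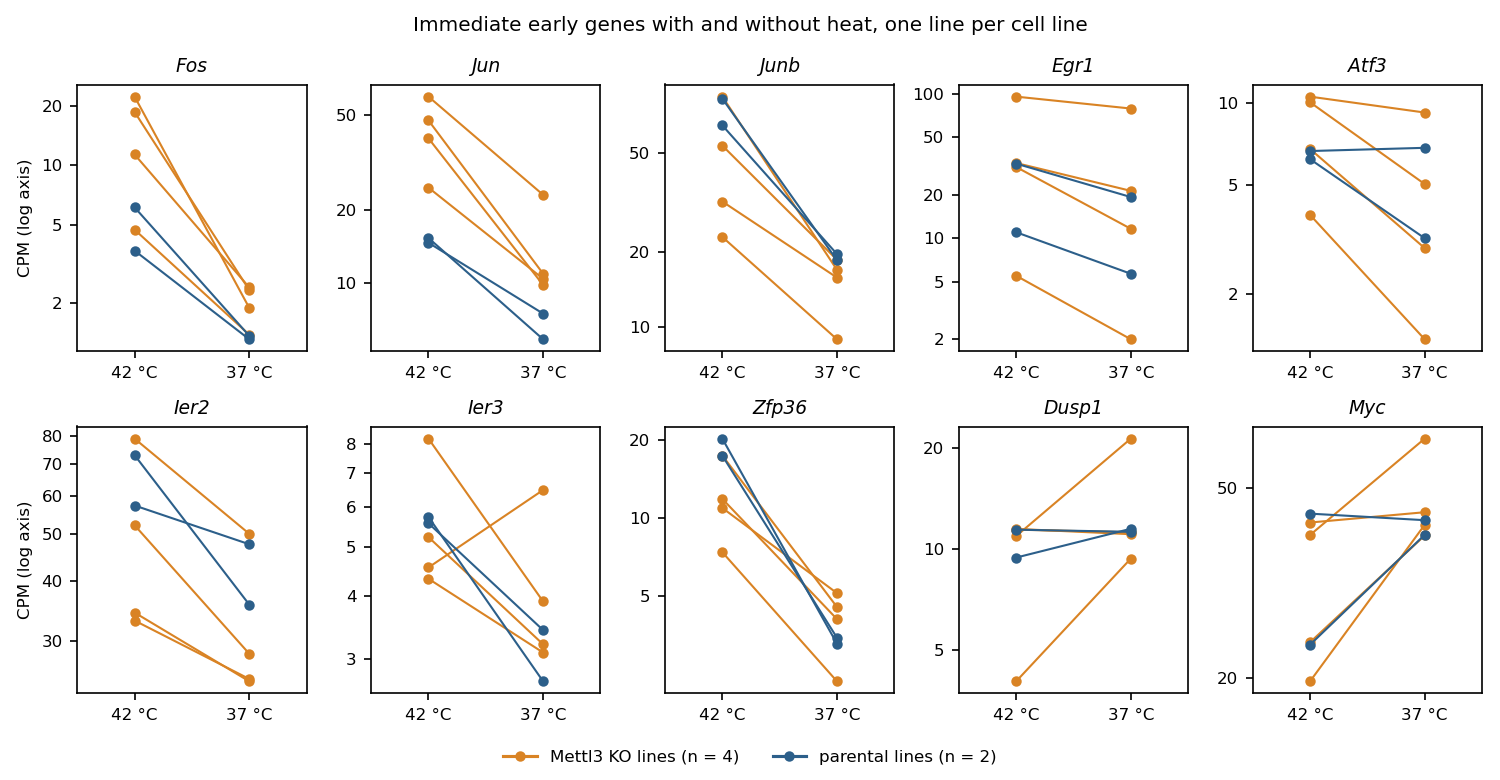
RNA level (CPM, log axis) of each member at 42 °C and 37 °C in the 4 Mettl3 knockout lines (orange) and 2 parental lines (blue), 1 line drawn per cell line. Fos, Jun, Junb, Egr1, Ier2 and Zfp36 lie higher at 42 °C in all 6 lines, Dusp1 in 3 and Myc in 1, and the lines of Egr1 lie the farthest apart.

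Because the same lines were sampled at both temperatures, the comparison was also fitted with the cell line as a block, and this changed several calls. With the block, 6 of 10 members rose in the average over genotypes, where 9.14% of all genes passed. Fos changed by 2.28 ± 0.23 (edgeR adjusted p = 8.72e-05), Jun by 1.43 ± 0.14 (7.38e-05), Junb by 1.75 ± 0.16 (0.000201) and Zfp36 by 2.02 ± 0.13 (1.95e-06). Egr1 changed by 0.83 ± 0.16 (0.01) and Ier2 by 0.63 ± 0.11 (0.00265). Atf3 (edgeR adjusted p = 0.0501), Ier3 (0.0578) and Myc (0.0624, lower) fell just outside. When both libraries of 1 line at a time were left out of this paired fit, Fos, Jun, Junb and Zfp36 passed in 6 of 6 fits, Ier2 in 5 and Egr1 in 4.

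Taken one genotype at a time, heat raised Fos in the knockout lines by 2.82 ± 0.43 (edgeR adjusted p = 0.0212), the only member called there, against 0.185% of genes. Jun (1.66 ± 0.32, adjusted p = 0.0776), Zfp36 (1.57 ± 0.29, 0.0721) and Junb (1.67 ± 0.36, 0.126) missed the threshold of the edgeR test. In parental lines, with 2 libraries a group, no member passed the edgeR test, and DESeq2 called Zfp36. Only 0.0192% of all genes passed the edgeR test there. An unadjusted edgeR p under 0.05 was found for 4 members and for 425 of all 15635 genes. Zfp36 had the largest parental change, 2.48 ± 0.43 (edgeR adjusted p = 0.149). With the line block, 8 members were called in the knockout lines, against 7.68% of genes, and Fos, Jun, Junb and Zfp36 in the parental lines, against 0.927%. When the libraries of 1 line at a time were left out of all 6 lines, the blocked parental call of Zfp36 held in 6 of 6 fits and that of Junb in 5, but those of Fos and Jun in 3 (Fos edgeR adjusted p up to 0.748). In the knockout lines Fos, Jun, Junb, Ier2 and Zfp36 passed in 6 of 6 such fits, Egr1 in 4 and Atf3 and Myc in 3. Of the 8, Myc was lower at -0.64 (edgeR adjusted p = 0.0462) and Atf3 higher at 0.86 (0.0311).

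Whether the heat effect differed between knockout and parental lines was tested directly. Fos differed by 0.97 ± 0.75 (knockout minus parental heat effect) and Zfp36 by -0.92 ± 0.50, both on the log2 scale. Without the line block, no gene (0%) passed the edgeR test of this difference, and of 207 genes with an unadjusted p under 0.05 none was a member. DESeq2 called 8 genes and no member. With 4 lines against 2, the standard errors of the members were 0.48 to 1.60 in this unpaired fit. With the line block they were 0.21 to 0.48. Zfp36 then differed by -0.93 ± 0.27 (unadjusted p = 0.00464, edgeR adjusted p = 0.59), and no other member had an unadjusted p under 0.05. Before heat, at 37 °C, no member differed between knockout and parental lines by edgeR or DESeq2, where edgeR called 0.908% of all genes. Jun came nearest, at 1.03 ± 0.41 (unadjusted p = 0.0257, edgeR adjusted p = 0.237). The summed level of 6 primitive endoderm markers was 10.2 to 20.2 CPM in the knockout lines over both temperatures, against 34.1 to 38.5 CPM in parental lines, and its part in these comparisons was not tested.

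Single libraries mattered for the heat calls of the unpaired fit. Without either parental library at 37 °C, no member passed. Only Zfp36 passed without parental line 1 at 42 °C, parental line 2 at 42 °C or line 2c4d at 42 °C. Without line 1d1 or 2c4d at 37 °C, Junb no longer passed, and without 3xU at 37 °C Jun passed in its place. Without line 1d2 at 42 °C, which had the lowest heated level of Fos, Jun, Junb, Egr1, Ier2, Zfp36, Dusp1 and Myc among the knockout lines, Jun was called together with Fos, Junb and Zfp36.

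With loss of the Microprocessor the called members went in both directions, and Fos was the one called in the unpaired fit of averaged heat as well. With the line block, Egr1 and Ier2 were also called in averaged heat, both as higher. In the DGCR8 line Egr1 rose at 24 h, and Fos and Egr1 rose while Myc fell at 96 h. In the Drosha line, where 96 h rests on 1 library with 4OHT against 2 controls, Fos and Atf3 were called higher and Egr1, Ier2 and Myc lower in that library. Junb and Zfp36, which rose with heat, were not called at any time in either line. Neither were Jun, Ier3 and Dusp1.

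At 24 h in the DGCR8 line, Egr1 had 40.3 and 42.7 CPM with 4OHT, against 18.6 and 18.7 CPM in controls, a log2 change of 1.16 ± 0.17 (edgeR adjusted p = 0.0240). It was the only member among 0.127% of genes called. The other 9 members changed by -0.37 to 0.04. The size of the Egr1 change hardly moved when a library was left out, at 1.13 to 1.20, but the call was lost without any 1 of the 4 libraries compared, with an edgeR adjusted p of up to 0.344. In the Drosha line at 24 h, Egr1 had 11.4 and 10.6 CPM with 4OHT, against 7.51 and 7.33 CPM in controls (0.58 ± 0.16, edgeR adjusted p = 0.247). Ier2 had 20.5 and 18.4 CPM with 4OHT, against 26.8 and 29.0 CPM in controls (-0.51 ± 0.12, edgeR adjusted p = 0.170). No member passed there by edgeR or DESeq2, where edgeR called 0.209% of all genes. An unadjusted edgeR p under 0.05 was found for 4 members and for 1775 of all 16262 genes.

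By 48 h in the DGCR8 line, 5 members had an unadjusted edgeR p under 0.05, as had 2227 of all 14973 genes. No member passed the adjusted threshold by edgeR or DESeq2, where 1.62% of genes did by edgeR. Myc had 15.4 and 18.5 CPM with 4OHT, against 32.3 and 25.3 CPM in controls (-0.75 ± 0.19, edgeR adjusted p = 0.0816). Fos had 4.89 and 3.63 CPM with 4OHT, against 2.79 and 1.64 CPM in controls (0.95 ± 0.29, adjusted p = 0.134). Egr1 had 16.2 and 17.4 CPM with 4OHT, against 10.7 and 11.8 CPM in controls (0.59 ± 0.18, adjusted p = 0.124). None of these 3 passed the adjusted threshold. In the Drosha line at 48 h the nearest member was Jun, with 21.8 and 19.2 CPM with 4OHT, against 14.3 and 15.3 CPM in controls (0.47 ± 0.13, edgeR adjusted p = 0.074). There edgeR and DESeq2 called none of the 10, while 3.09% of genes passed by edgeR. An unadjusted edgeR p under 0.05 was found for 4 members and for 2749 of all 16262 genes.

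At 96 h in the DGCR8 line, Fos had 15.0 and 15.1 CPM with 4OHT, against 5.25 and 6.27 CPM in controls, a change of 1.38 ± 0.24 (edgeR adjusted p = 0.00403). Egr1 had 24.6 and 35.3 CPM with 4OHT, against 16.9 and 17.4 CPM in controls, a change of 0.81 ± 0.17 (edgeR adjusted p = 0.00911). Myc had 19.1 and 12.9 CPM with 4OHT, against 30.5 and 30.0 CPM in controls, a change of -0.93 ± 0.20 (edgeR adjusted p = 0.00977). Thus 2 of 10 members rose and 1 fell, where 13.8% of all genes were called, 8.48% as higher and 5.36% as lower. Jun had 12.6 and 18.9 CPM with 4OHT, against 11.7 and 9.46 CPM in controls (0.59 ± 0.20, adjusted p = 0.0772), and Ier3 had 2.02 and 1.77 CPM, against 4.67 and 2.53 CPM in controls (-0.93 ± 0.34, adjusted p = 0.0955).

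The 4OHT libraries of this time point differed from each other. Replicate 1, with 33.4% mitochondrial counts, had the lower level of Jun, Junb, Egr1, Atf3 and Ier2, and without it 4 members passed, Jun in addition. Without replicate 1 of the controls none passed, and without replicate 2 of the controls Fos did. When the other time points were left out of the fit, no gene passed at all. The sum of 6 neuroectoderm markers was 181 to 228 CPM with 4OHT at 96 h in the DGCR8 line, against 111 CPM in both controls, and its part in these changes was not tested.

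At 96 h in the Drosha line the single 4OHT library was set against 2 controls, and its spread was taken from the other groups. Fos had 9.24 CPM with 4OHT, against 3.86 and 5.13 CPM in controls (1.04 ± 0.32, edgeR adjusted p = 0.0246). Atf3 had 15.7 CPM, against 8.54 and 9.92 CPM in controls (0.77 ± 0.20, adjusted p = 0.0115). Both were called higher in this library.
Egr1 had 6.56 CPM with 4OHT, against 12.0 and 13.3 CPM in controls (-0.95 ± 0.21, edgeR adjusted p = 0.00407). Ier2 had 19.8 CPM, against 39.2 and 37.0 CPM in controls (-0.95 ± 0.16, adjusted p = 0.000485). Myc had 20.5 CPM, against 35.3 and 45.3 CPM in controls (-0.98 ± 0.18, adjusted p = 0.00125). All 3 were called lower in it. Zfp36, with 4.27 CPM against 6.57 and 8.00 CPM in controls, missed the threshold (-0.77 ± 0.29, adjusted p = 0.0671). Thus 2 of 10 members were called higher and 3 lower, where 24% of all genes were called, 12.9% as higher and 11.1% as lower. Without replicate 1 of the controls Fos and Atf3 were no longer called, and DESeq2 did not call Fos. In the 4OHT library the sum of 6 primitive endoderm markers was 78.4 CPM, against 53.4 and 53.9 CPM in controls, and that of 4 mesoderm markers 10.9 CPM, against 17.2 and 17.7 CPM. The share of mitochondrial counts was 28.7%, and the part of these values in the changes was not tested.

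**Figure D2:**
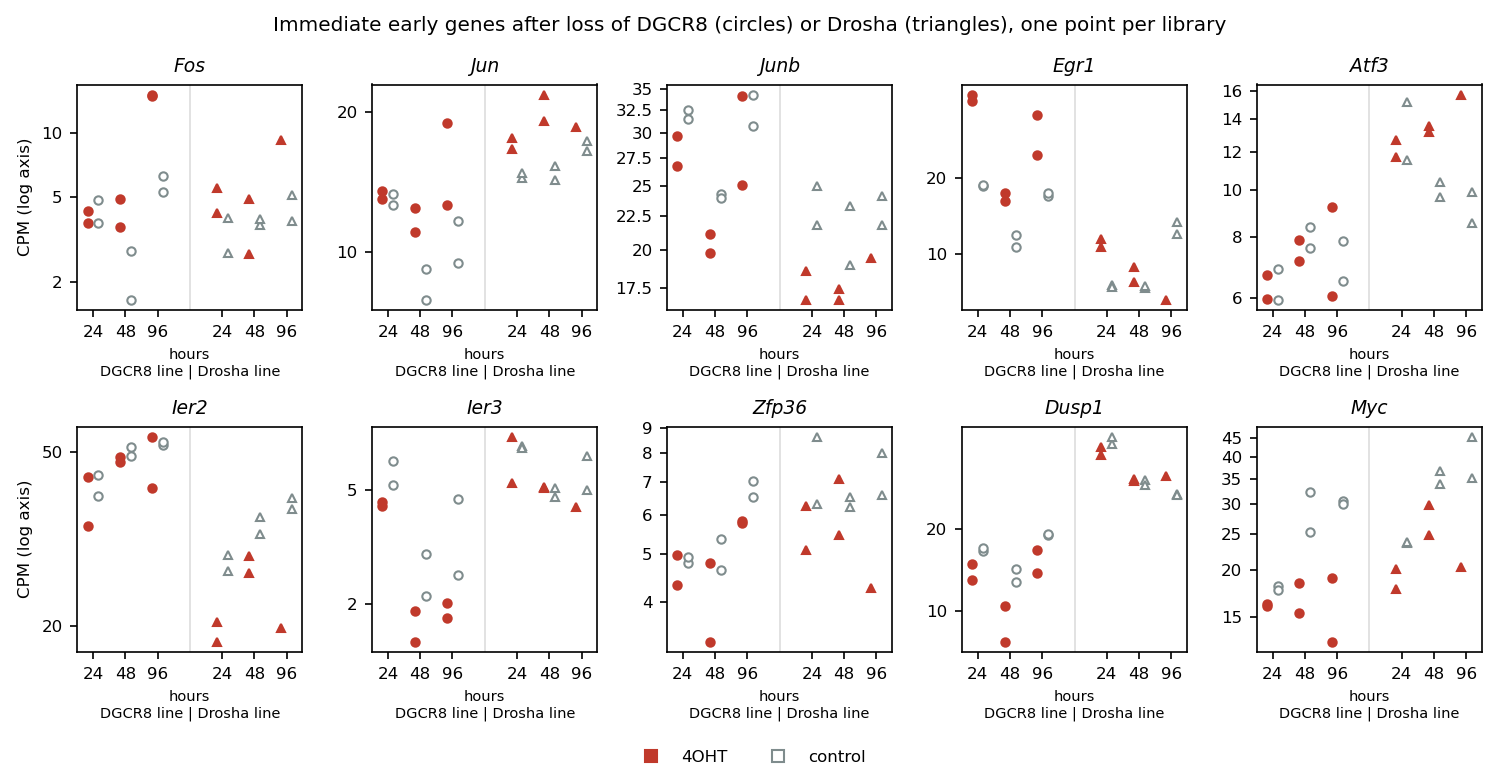
RNA level (CPM, log axis) of each member in every library with 4OHT (filled red) and without (open grey) at 24, 48 and 96 h, for the DGCR8 line (circles, left of the grey line) and the Drosha line (triangles, right). At 96 h Fos lies above and Myc below the controls in both lines, while Egr1 lies above them in the DGCR8 line and below them in the Drosha line.

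For the difference in response between the 2 floxed lines, Egr1 at 96 h was the one member called, and the Drosha side of it rests on the single 4OHT library with 28.7% mitochondrial counts. At 96 h the DGCR8 effect minus the Drosha effect was 1.76 ± 0.26 on the log2 scale (edgeR adjusted p = 0.00819), among 0.175% of genes called. With the 96 h libraries alone its adjusted p was 0.82. The call was also lost without replicate 2 of the DGCR8 controls or replicate 2 of the Drosha controls. Ier2 followed at 0.82 ± 0.23 (adjusted p = 0.166) and passed when the DGCR8 library with 33.4% mitochondrial counts was left out. Fos and Myc differed by 0.34 ± 0.42 and 0.05 ± 0.28. At 24 and 48 h no member passed this test by edgeR or DESeq2 and 0.00602% of genes did by edgeR at each time. At an unadjusted p under 0.05 stood Egr1 at 24 h (0.58 ± 0.22), and Fos (0.93 ± 0.44) and Dusp1 (-0.59 ± 0.20) at 48 h. Of all 16606 genes, 571 at 24 h and 830 at 48 h were under that value.

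The heat effect, averaged over genotypes, was set directly against the effect of Microprocessor loss, averaged over the 2 floxed lines, in 1 fit of all 35 libraries. The 2 tables hold different lines and have no group in common, so this is a difference of differences between experiments. Zfp36 exceeded its loss effect by 2.24 ± 0.30 at 24 h (edgeR adjusted p = 9.26e-05), 2.19 ± 0.30 at 48 h (9.01e-05) and 2.51 ± 0.32 at 96 h (2.25e-05). Junb exceeded it by 2.08 ± 0.34 (0.00163), 2.08 ± 0.34 (0.000971) and 1.99 ± 0.37 (0.00123). Both stood apart from loss at every time.

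Fos exceeded its loss effect at 24 h by 2.09 ± 0.45 (edgeR adjusted p = 0.0217) and at 48 h by 1.86 ± 0.45 (0.0335). At 96 h, when Fos had risen with loss as well, the difference was 1.11 ± 0.46 and did not pass (adjusted p = 0.145). With cell line and replicate number as blocks it did, at 0.95 ± 0.34 (edgeR adjusted p = 0.0465). Those blocks pair the floxed libraries by replicate number, which is only a number, and leave replicate 2 of the Drosha controls at 96 h without a partner. The Drosha effect at 96 h then rests on 1 library with 4OHT against 1 control. At 96 h without the blocks, Ier2 (1.17 ± 0.31, adjusted p = 0.0195) and Ier3 (1.31 ± 0.36, adjusted p = 0.0237) were called in addition. Egr1 differed by 0.73 ± 1.03 without the blocks and by 0.88 ± 0.24 with them (edgeR adjusted p = 0.0103), and Myc by 0.50 ± 0.30 without them. The averaged loss effect of Egr1 at 96 h, -0.07, joins opposite changes. These were 0.80 in the DGCR8 line and -0.94 in the single Drosha library with 4OHT, where the averaged heat effect was 0.66. In all, without the blocks, 3 members were called at 24 h against 0.465% of genes, 3 at 48 h against 1.33% and 4 at 96 h against 7.7%. Without the pair of 4OHT libraries high in mitochondrial counts, only Zfp36 passed at 96 h. That leaves no Drosha library with 4OHT at 96 h, so it sets heat against the DGCR8 line alone, with 1 library with 4OHT. With those blocks, 5, 6 and 7 members passed at 24, 48 and 96 h, against 6.27%, 10.6% and 23% of genes.

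**Figure D3:**
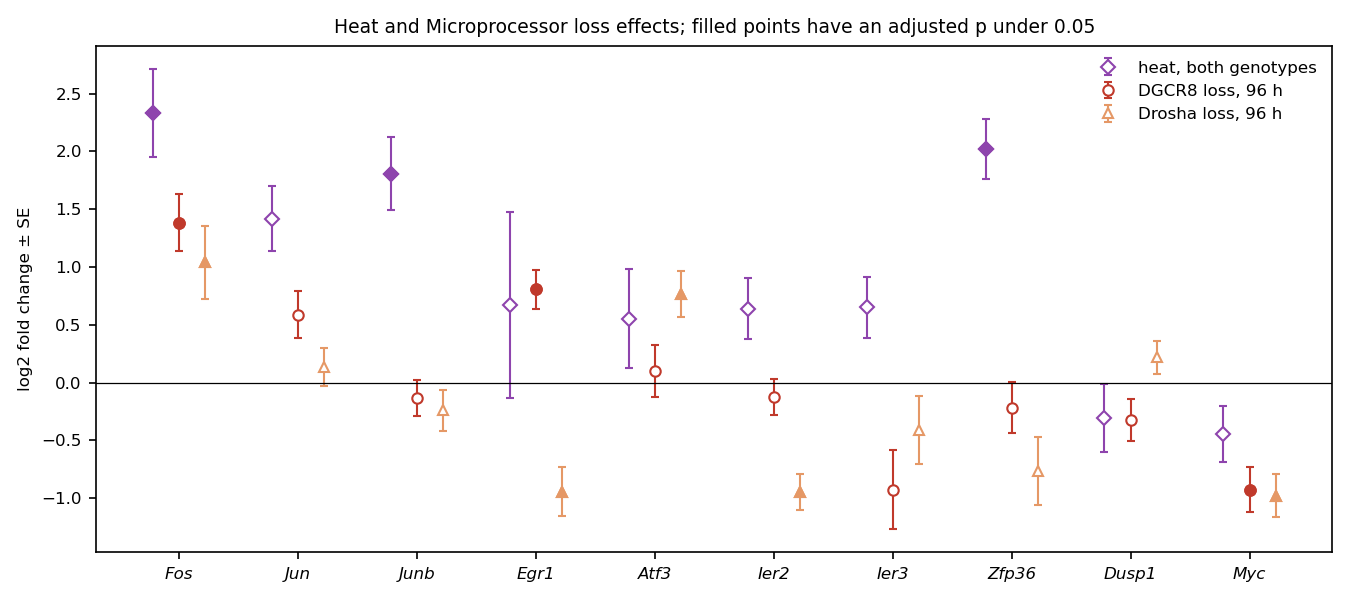
Log2 fold change ± SE of each member for heat averaged over both genotypes (diamonds), DGCR8 loss at 96 h (circles) and Drosha loss at 96 h (triangles); filled symbols have an edgeR adjusted p under 0.05. Fos is filled in all 3, Junb and Zfp36 are filled for heat alone, and Egr1 is filled with opposite signs in the 2 floxed lines.

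Among 53 other immediate early genes, 46 were tested in the heat set and 30 were higher at 42 °C, as were 7624 of all 15635 genes. Their median change was 0.23 on the log2 scale, against -0.01 for all genes. In the average over genotypes 0.262% of all genes were called, and the counts called below are from the same test. Of the 46, 1 was called, Gadd45b (1.80 ± 0.22, edgeR adjusted p = 0.0029), a stress adaptor of MAP kinase signalling. Irf1, an interferon regulatory factor (0.99 ± 0.19, 0.0557), and Gadd45g, a relative of Gadd45b (1.98 ± 0.41, 0.0883), missed the threshold. All 8 genes of a heat shock core list were higher and 4 were called, against 0.262% of all genes. They were led by the chaperone Hspa1a at 7.70 ± 0.27 (edgeR adjusted p = 1.29e-08) and the cochaperone Dnajb1 at 2.35 ± 0.26 (0.00189). None of 22 tested genes for upstream kinases and factors was called with heat.

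After loss of DGCR8, none of the 46 other immediate early genes tested was called at 24 h, 4 rose at 48 h, where 1.62% of all genes were called, and 9 rose and 2 fell at 96 h, where 13.8% were. Klf2, a transcription factor of the naive pluripotent state, changed by 1.08 ± 0.17 at 48 h (edgeR adjusted p = 0.0107) and 1.35 ± 0.17 at 96 h (0.000715). Btg2, an antiproliferative protein, changed by 0.91 ± 0.18 (0.0252) and 1.30 ± 0.17 (0.00108). In the Drosha line none of 48 tested was called at 24 h, 5 rose and 2 fell at 48 h, where 3.09% of all genes were called, and in the single library at 96 h 10 were called higher and 15 lower, where 24% were. Btg2 changed there by 1.08 ± 0.10 at 48 h (edgeR adjusted p = 2.07e-05) and 1.34 ± 0.12 at 96 h (1.45e-06), and the kinase gene Pim1 by -1.32 ± 0.17 at 96 h (6.83e-05). Of 22 upstream genes tested in the DGCR8 line, 1 was called higher at 24 h and 1 at 48 h. At 96 h 3 were called higher and 1 lower. The shares of all genes called were 0.127%, 1.62% and 13.8%. Elk4, a ternary complex factor that binds promoters together with serum response factor, had the smallest p of the 22 at each time. In the DGCR8 line it changed by 0.90 ± 0.14 (edgeR adjusted p = 0.038), 1.35 ± 0.14 (0.000961) and 1.71 ± 0.14 (0.000114) at 24, 48 and 96 h. In the Drosha line Elk4 changed by 0.35 ± 0.15 (0.424) at 24 h and 1.10 ± 0.15 (0.000803) at 48 h. In the single library with 4OHT at 96 h it changed by 1.15 ± 0.17. There 11 of the 22 upstream genes were higher than in controls, while Elk1 (-0.66) and Map2k2 (-0.58) were lower. Srf, the gene of serum response factor, was lower there as well (-0.65).

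The genes with the pattern most like Fos, Egr1 and Zfp36 were sought among 11361 genes by the root mean square difference of log2 fold changes over 8 contrasts, 6 of 4OHT and 2 of heat. Nearest to Fos were Gadd45g (0.463), Gadd45b (0.676) and Slc5a3 (0.757). Nearest to Egr1 were Irs2 (0.408), Fancg (0.448) and Bahd1 (0.455). Nearest to Zfp36 were Dnajb1 (0.413), Socs3 (0.483) and Hist1h4i (0.489). In that fit of all 35 libraries Gadd45g had log2 changes of 1.03 in the DGCR8 line and 0.94 in the Drosha line at 96 h, and of 2.35 in knockout and 1.60 in parental lines with heat. Dnajb1 had changes of -0.16 to 0.10 with 4OHT and of 2.22 and 2.47 with heat in knockout and parental lines.

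On chromatin, METTL3 lay over 1 member far more than over the others in clones 1 and 2. The windows of Ier2 (chr8:84661331-84662852) had 92.2, 108, 152 and 89.5 CPM in the METTL3 precipitates of clones 1, 1, 2 and 2, against 16.2 and 14.3 CPM in the inputs of clones 1 and 2. The change was 2.85 ± 0.33 on the log2 scale (edgeR adjusted p = 0.00232), and every precipitate lay above both inputs. Fos (chr12:85473890-85477274) had 6.57, 9.17, 7.59 and 8.38 CPM in the precipitates, against 17.6 and 17.9 CPM in the inputs (-1.16 ± 0.12, adjusted p = 2.42e-08). Ier3 (chr17:35821713-35822911) had 4.91, 6.26, 6.44 and 5.71 CPM, against 16.2 and 14.3 CPM in the inputs (-1.39 ± 0.13, adjusted p = 2.36e-09). Both were lower in the precipitates than in input, and the windows of Ier3 are shared with Flot1. Input was itself high there. The Ier3 window had 351 and 197 input counts in clones 1 and 2, where the median window had 28 and 18. Its precipitates had 145, 165, 189 and 143 counts, against medians of 51, 42, 48 and 41. In clone 1 the Fos windows had 243 and 139 input counts, and 111 and 83 in the first precipitate. These ratios thus do not set METTL3 below its level over a typical window.

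In all, 1 member was higher and 6 were lower in the METTL3 precipitates, where 48.1% of genes were called, 20.2% higher and 28% lower. The other lower ones were Jun (chr4:95049036-95052222; -0.95 ± 0.16), Atf3 (chr1:191170296-191183333; -0.89 ± 0.10), Zfp36 (chr7:28376784-28379228; -0.56 ± 0.18) and Junb (chr8:84976909-84978748; -0.54 ± 0.18). Egr1 (chr18:34861207-34864956; 0.03 ± 0.51), Myc (chr15:61985341-61990361; 0.07 ± 0.28) and Dusp1 (chr17:26505591-26508472; -0.34 ± 0.15) were not called. The members' median was -0.55, against 0.04 for all genes. DESeq2 did not call Junb, and the windows of Jun are shared with Junos. For Egr1 the clones differed, with 9.21 and 12.4 CPM in the precipitates of clone 1 and 27.2 and 17.3 CPM in those of clone 2, against 15.8 and 16.7 CPM in their inputs.

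With heat, METTL3 signal over Jun was higher in both lines. Line H4 had 61.1 CPM at 42 °C, against 23.2 CPM at 37 °C, and line H5 had 72.9 CPM at 42 °C, against 17.0 CPM at 37 °C, with 19.4 and 12.0 CPM in their inputs at 37 °C. The change of 1.81 ± 0.18 missed the threshold with 2 libraries a group (unadjusted p = 0.000177, edgeR adjusted p = 0.0747). No other member had an unadjusted p under 0.05, and no member was called by edgeR, where 0.05% of genes passed and 5069 had an unadjusted p under 0.05. DESeq2 called Jun, and so did edgeR without the TMM step.

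Junb and Zfp36 depended on the line. Junb had 43.7 CPM in H4 and 229 CPM in H5 at 42 °C, against 41.8 and 56.7 CPM at 37 °C, with inputs of 32.7 and 17.4 CPM. Zfp36 had 10.3 CPM in H4 and 43.7 CPM in H5 at 42 °C, against 17.5 and 15.7 CPM at 37 °C, with inputs of 19.7 and 11.9 CPM. For both, the higher signal at 42 °C came from H5, and the changes (1.55 ± 0.77 and 0.79 ± 0.66) did not pass.
Ier2 went the other way, with 59.9 and 158 CPM in H4 and H5 at 42 °C, against 144 and 246 CPM at 37 °C, and inputs of 27.2 and 15.1 CPM. Myc had 8.36 and 16.8 CPM at 42 °C, against 21.3 and 37.9 CPM at 37 °C, with inputs of 17.6 and 14.1 CPM. Each was lower at 42 °C in both lines (-0.77 ± 0.53 and -1.17 ± 0.46), without passing. Egr1 had 37.1 and 59.9 CPM at 42 °C, against 57.1 and 37.4 CPM at 37 °C, with inputs of 22.5 and 16.2 CPM. At 37 °C Egr1 lay above input in both lines, by 1.34 in H4 and 1.20 in H5 on the log2 scale. Fos had 11.3 and 12.1 CPM at 42 °C, against 10.2 and 9.26 CPM at 37 °C, with inputs of 19.9 and 12.2 CPM. With the line as a block, Jun was called higher and Ier2, Dusp1 and Myc lower, among 25% of genes called. That fit rests on 1 residual degree of freedom among the libraries, so its p-values are not given.

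**Figure D4:**
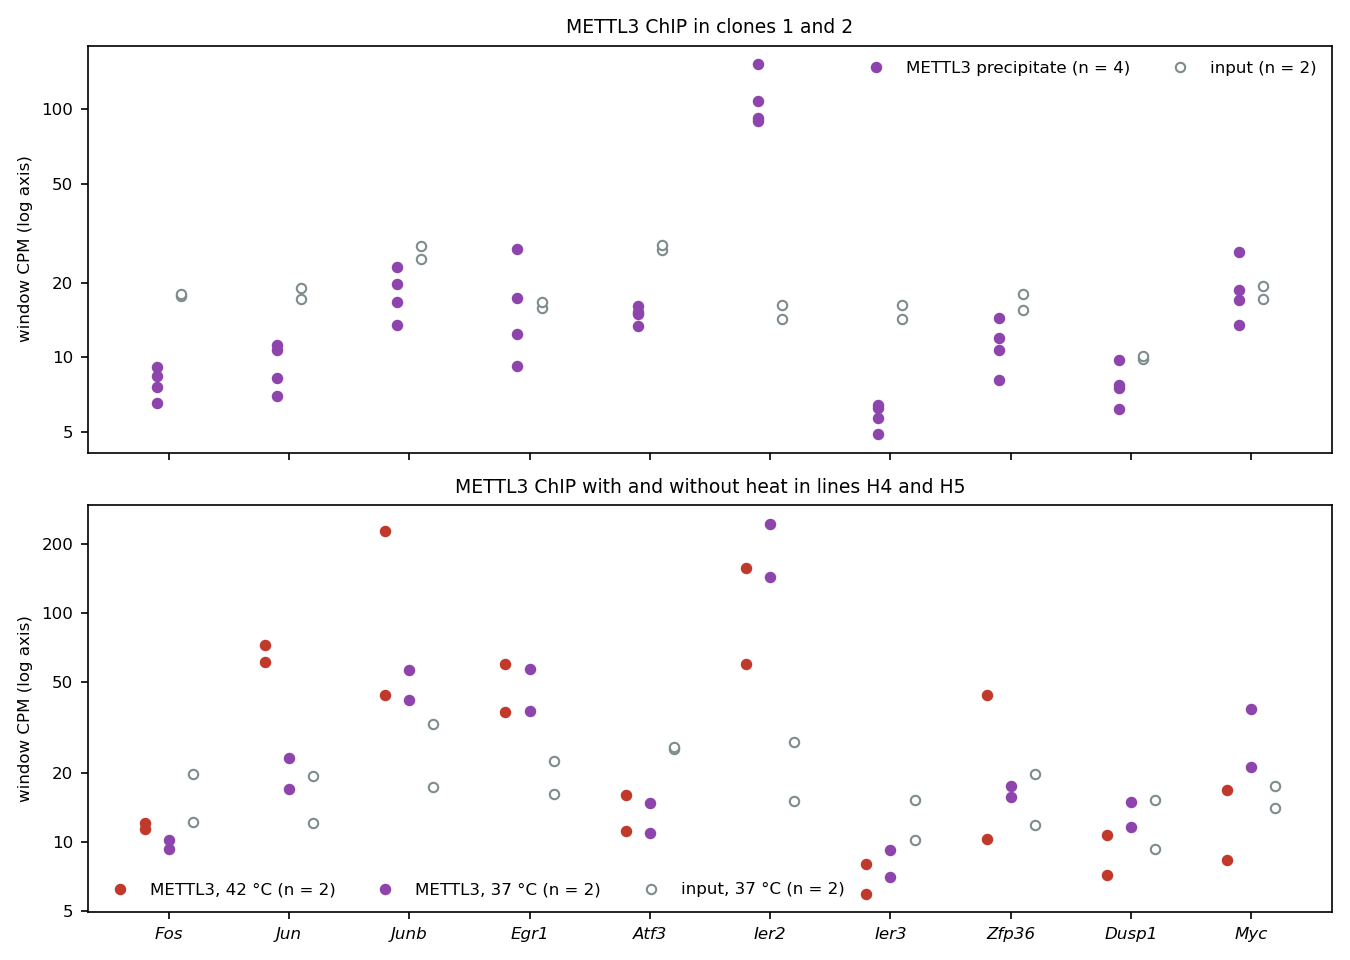
METTL3 ChIP signal (CPM over the windows of each gene, log axis): above, 4 precipitates (purple) and 2 inputs (open grey) of clones 1 and 2; below, lines H4 and H5 at 42 °C (red) and 37 °C (purple) with their inputs at 37 °C (open grey). Ier2 is the member far above input in both sets, and both red points of Jun lie above both purple ones. In the lower set the red and purple points of Egr1 and Junb also lie above both inputs.

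DGCR8, Drosha and Dicer precipitates had 1 library per condition, so the ratios below have no replicate check, and their exact 95% binomial intervals cover counting error only. Ratios are log2 of CPM, with the CPM worth of 1 count in the shallower library added to both sides. The Ier2 windows had 23.0 CPM in the DGCR8 precipitate labelled DSG, against 11.8 CPM in its input, a log2 ratio of 0.96 (0.81 to 1.12), which was the 89.7th percentile of all genes. In the Drosha precipitate Ier2 had 27.6 CPM, against 10.5 CPM in parental input, a ratio of 1.40 (1.19 to 1.61) at the 96.5th percentile. Junb had 14.9 CPM, against 7.07 CPM in parental input, a ratio of 1.07 (0.80 to 1.35) at the 93.1th percentile. Ier2 and Junb were the members at least 2-fold higher in the Drosha precipitate, as were 8.1% of genes. Fos (-1.60), Jun (-1.10) and Zfp36 (-1.03) were at least 2-fold lower, as were 10.3% of genes.

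For the other DGCR8 (DSG) ratios, Myc was at 0.61 and the remaining members lay between -0.53 and 0.02. No member reached 2-fold there, where 9.45% of genes were higher and 4.07% lower by that amount. In the Dicer precipitate no member reached 2-fold either, as was true of nearly all genes (0.156% higher and 0.0853% lower), with Junb at 0.53 and Zfp36 at -0.82 as the extremes.

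In the set with Mettl3 knockout cells, DGCR8 lay over Ier2 at 7.86 CPM in the knockout precipitate, against 11.1 CPM in the wild-type precipitate and 8.44 CPM in the wild-type input. The knockout over wild-type ratio was -0.49 (-0.77 to -0.22), at the 6.2th percentile. Junb had 7.40 CPM in the knockout precipitate, against 9.65 CPM in wild type (-0.38), and Myc 9.02 CPM, against 11.4 CPM (-0.33). The remaining members lay between -0.28 and 0.24. None reached 2-fold, and 0.189% of genes were at least 2-fold higher and 0.825% lower. In the wild-type precipitate over input the members lay between -0.93 (Egr1) and 0.39 (Ier2), again none by 2-fold, where 3.01% of genes were higher and 0.358% lower by that amount.

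In the heat set, DGCR8 lay over Ier2 at 53.7 CPM at 37 °C, against 14.2 CPM in input, a log2 ratio of 1.91 (1.79 to 2.04) at the 96.6th percentile. Junb had 35.1 CPM, against 16.0 CPM in input (1.13, 0.99 to 1.28). These were the members at least 2-fold higher, as were 14.4% of genes, while none of the 10 and 14% of genes were 2-fold lower. At 42 °C the DGCR8 signal over Ier2 was 22.2 CPM, against 53.7 CPM at 37 °C, a ratio of -1.27 (-1.38 to -1.16) at the 6.01th percentile. Myc had 9.33 CPM at 42 °C, against 22.2 CPM at 37 °C, a ratio of -1.25 (-1.42 to -1.08). These were the members at least 2-fold lower at 42 °C, as were 10.9% of genes, and none was 2-fold higher, against 6.54% of genes. The other 8 lay between -0.53 (Dusp1) and 0.40 (Fos), with Jun at -0.20, Junb at 0.23 and Zfp36 at 0.21. For Ier2 and Myc, the METTL3 and the DGCR8 precipitates were both lower at 42 °C than at 37 °C. Ier2 RNA was higher in all 6 lines and Myc RNA lower in 5 of 6. The METTL3 changes did not pass the edgeR test, DGCR8 had 1 library per condition, and no input was taken at 42 °C. Between the 2 DGCR8 libraries the median window was 0.28 higher at 42 °C on the log2 scale, and its part in these ratios was not tested.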

How the data were processed

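The RNA values are raw counts per gene as deposited, from ribosomal RNA-depleted total RNA made into ScriptSeq v2 libraries per the labels' protocols, and the chromatin values are deposited counts per window of 5000 bases. The submitters' processing notes name Bowtie as a tool and mm10 as the genome build. The counting tool, strand setting and annotation are not given in the sources used here, so reads of overlapping and antisense genes cannot be told apart. A deposited width per gene gave reads per kilobase and was not a measurement. Sample titles set the groups, since other label fields contradict each other. 1 deposited column that matched no single sample was not used here.

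RNA counts were tested with edgeR 4.0.16 (quasi-likelihood F test, TMM scaling, group filter with a minimum count of 10, Benjamini-Hochberg adjustment over all genes, threshold 0.05) in R 4.3.3, per floxed line, over the heat set, and over all libraries for the differences. CPM is TMM-scaled within each set. Window counts were summed per gene over the windows its span touches, kept at a mean of at least 10 and tested likewise; single-library ratios needed at least 50 counts in the 2 libraries. DESeq2 1.42.0, other scalings, filters, blocks and leaving out each library were alternatives, and the tests were tried on simulated data. Python 3.11.15 with pandas 2.3.3, scipy 1.17.1 and matplotlib 3.10.9 did the rest. Symbols matched 37607 of 39017 identifiers.

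In the heat set the same cell line was sampled at both temperatures, so lines pair the samples; deviations of paired libraries correlated at 0.517 to 0.772. All 10 members are named; of other lists, up to 3 genes with the smallest p per comparison. The members and lists were chosen with earlier results of these data known.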

Additional observations from a re-analysis of the deposited data

Results flagged for a closer look

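In the 20 groups of 4 knockout libraries (10 members at 2 temperatures), a library stood far from the other 3 in 4 cases, by the ratio of its gap to the range, above Dixon's critical value for 4 libraries, where chance alone gives about 1 in 20. Line 3xU at 37 °C was high for Dusp1 (21.3 CPM) and for Jun (23.2 CPM). Line 1d1 at 37 °C was high for Ier2 (50.1 CPM). Line 1d2 at 42 °C was low for Dusp1 (4.03 CPM).

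The effect of 4OHT on Egr1 at 96 h differed between the DGCR8 and the Drosha line by 1.76 on the log2 scale in the edgeR test of the difference itself, with 1 Drosha library with 4OHT.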

How the results depend on the processing

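Of 500 recomputed fold changes of members called in the main fits, 428 kept their direction and side of the threshold, 72 lost the threshold and 0 reversed. Members not called in a main fit are not among these, so gained calls do not show there. Of 305 recomputed counts of called members and pooled chromatin ratios, 230 stayed within a set margin and 75 moved beyond it. Heat calls depended most on the pairing. With the line as replicate block the members called numbered 4 in parental lines, 8 in knockout lines and 6 in the average. DESeq2 called 1 in parental and 4 in knockout lines, fitting without a filter 1 and 3, and the knockout lines alone 0. Leaving out libraries or, in the blocked fit, lines gave 0 to 5 in parental lines, 0 to 8 in knockout lines and 0 to 8 in the average. In the DGCR8 line, leaving out 1 library gave 0 at 24 h and 0 to 4 at 96 h, no filter gave 1 at 48 h and the 96 h libraries alone 0. In the Drosha line, the 24 h libraries alone gave 3, no filter 1, crossed replicate numbers at 48 h 2, and leaving out 1 library 0 to 1 at 48 h and 3 to 5 at 96 h. For the difference between these lines at 96 h, the replicate block (Egr1 1.66 ± 0.29, edgeR adjusted p = 0.264) and the 96 h libraries alone each gave 0, and leaving out 1 library 0 to 2. Replicate numbers of the floxed lines are only numbers: deviations of same-numbered libraries correlated at -0.393 to 0.283. Heat minus loss gave 5, 6 and 7 with replicate blocks at 24, 48 and 96 h, 5 and 5 without a filter at 24 and 48 h, and at 96 h 2 with the compared groups alone and 1 without both libraries high in mitochondrial counts (the DGCR8 line alone), chosen after seeing the data. METTL3 over input gave 4 with the start window alone, which 7 members have. METTL3 with heat gave 4 with the line block and 1 each with DESeq2 and without TMM. Over the pooled windows of all members the log2 ratios, scaled to the median window, were -0.27 for DGCR8 (DSG), 0.55 for DGCR8 at 37 °C and -0.59 for 42 over 37 °C. Unscaled they were 0.02, 0.47 and -0.31. Over start windows, which leave out Egr1, Ier2 and Myc, they were -0.25, 0.16 and 0.12 for these, so that the last one and the first one changed sign, -0.54 for Drosha, -0.33 for Dicer and -0.55 for wild-type DGCR8. Over all genes, calls for averaged heat numbered 41 by edgeR, 152 by DESeq2 and 1429 with the line block, and for knockout against parental lines at 37 °C 142 by edgeR and 769 by DESeq2. METTL3 with heat had 15, 1481 and, with the line block, 7502. Heat minus loss at 24, 48 and 96 h had 80, 229 and 1326 genes, against 1080, 1821 and 3953 with blocks. The difference between the floxed lines at 96 h had 29, DESeq2 78 and the replicate block 1. For 4OHT at 48 h the block gave 133 genes against 242 in the DGCR8 line and 256 against 503 in the Drosha line, and at 24 h 12 against 19 and 59 against 34. The cause of these shifts was not tested. No paired analysis was possible because knockout and parental lines differ, for their comparison at 37 °C. Low counts of Fos and Ier3 limit their precision at 37 °C.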
